A study of Mus musculus with 12 samples.

Results

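Genes known for their use in germ cells were followed in 12 mouse arrays from cultured bone marrow cells that carried a leukaemia fusion gene. In these cells the gene for the DNA demethylating enzyme Tet2 was either deleted or intact. The 10 genes were Dazl, Ddx4, Mael, Asz1, Sycp1, Sycp3, Hormad1, Slc25a31, Taf7l and Tex101. They were chosen by symbol, whatever their signal, and 9 of the 10 had a row of their own among the 22180 genes with one. The only row for Sycp3 is annotated to Chpt1 as well, a phospholipid synthesis gene, so its signal cannot be given to Sycp3. The label under which the genes were grouped calls them silenced by promoter methylation. The arrays gave signal in the range of background for the 9 genes with their own row, and DNA methylation itself was not analysed here.

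Bone marrow cells enriched for the receptor Kit came from Tet2fl/fl;CreER mice, whose Tet2 alleles are floxed and whose Cre recombinase is activated by 4-hydroxytamoxifen (4-OHT). All 4 groups carried floxed Tet2, CreER and the MigR1 retroviral vector, which brings in GFP and AML1-ETO, a fusion protein of human acute myeloid leukaemia. After 3 rounds of replating and a move to suspension culture with SCF, IL-3 and IL-6, cells were given 4-OHT at 200 nM to delete Tet2 (Tet2-/-) or ethanol (Tet2fl/fl) for 4 days. GFP-positive, CD11b-negative, Gr1-negative, CD16/32-positive cells were sorted. The groups were Tet2-/- and Tet2fl/fl cells at passage 2 (p2) and Tet2-/- and Tet2fl/fl cells at passage 10 (p10), with 3 arrays each. 4-OHT was given to Tet2-/- cells only, so in every genotype comparison the loss of Tet2 and the action of the drug or of active Cre cannot be told apart. The promoter that drives CreER is not given in the sources used here, and the labels do not say whether the 3 arrays of a group came from cultures kept apart. The p-values therefore measure only how these samples spread, which may be technical.

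Genes of this kind act in germ cells, where they build the chromosome axis of meiosis, process the small piRNAs that restrain transposons, and control translation of germ cell messages. In somatic cells their CpG-rich promoters are known to be methylated early in development, and a Polycomb-type complex with E2F6, Mga, Max and L3mbtl2 (PRC1.6) is known to repress many of them through E-box and E2F6-type motifs. Some are known to be switched on when DNA methylation is lost. Tet2 oxidises methylated cytosine, the first step of its removal.

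The promoter windows are shown because the group is named for its promoters. RefSeq windows of 300 bases on GRCm38.p6, from 250 bases before to 50 after the annotated start, were at hand for 10 of the 10 genes. For Hormad1, which has 2 windows at almost the same place, the one with the lower start coordinate was used. The Ddx4 gene on the minus strand runs to base 112652633, past its window, so that window belongs to a start inside the gene. Capitals mark the E-box CACGTG, which reads the same on both strands, and the E2F6-type hexamer TCCCGC or its reverse complement GCGGGA. No marked motif overlaps another in these windows. The first 4 windows hold both motifs, and that of Dazl holds neither.
Ddx4 (chr13:112652261-112652560, minus strand): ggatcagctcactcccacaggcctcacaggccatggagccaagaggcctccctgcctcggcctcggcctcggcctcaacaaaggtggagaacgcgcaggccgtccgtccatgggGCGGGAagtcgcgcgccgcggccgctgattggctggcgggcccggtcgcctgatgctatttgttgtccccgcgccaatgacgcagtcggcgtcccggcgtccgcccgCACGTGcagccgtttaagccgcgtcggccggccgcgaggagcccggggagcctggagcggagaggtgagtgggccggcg
Hormad1 (chr3:95559427-95559726, plus strand): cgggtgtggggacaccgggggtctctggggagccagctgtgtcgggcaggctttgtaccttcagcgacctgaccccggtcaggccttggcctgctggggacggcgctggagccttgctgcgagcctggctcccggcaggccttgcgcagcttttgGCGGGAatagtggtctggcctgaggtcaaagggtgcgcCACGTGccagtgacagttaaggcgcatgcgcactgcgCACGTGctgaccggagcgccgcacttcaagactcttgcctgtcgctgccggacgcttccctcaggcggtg
Slc25a31 (chr3:40708621-40708920, plus strand): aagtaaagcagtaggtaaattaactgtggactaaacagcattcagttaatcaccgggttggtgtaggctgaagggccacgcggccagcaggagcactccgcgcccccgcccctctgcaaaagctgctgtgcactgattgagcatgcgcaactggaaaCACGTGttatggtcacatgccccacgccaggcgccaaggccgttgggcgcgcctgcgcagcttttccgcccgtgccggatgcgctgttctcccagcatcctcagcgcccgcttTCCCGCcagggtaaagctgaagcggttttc
Sycp1 (chr3:102936051-102936350, minus strand): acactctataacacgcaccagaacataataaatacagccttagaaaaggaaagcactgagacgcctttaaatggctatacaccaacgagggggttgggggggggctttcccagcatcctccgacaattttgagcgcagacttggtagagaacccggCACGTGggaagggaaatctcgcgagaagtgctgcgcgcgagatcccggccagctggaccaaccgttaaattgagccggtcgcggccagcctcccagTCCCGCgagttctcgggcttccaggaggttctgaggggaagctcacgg
Dazl (chr17:50293571-50293870, minus strand): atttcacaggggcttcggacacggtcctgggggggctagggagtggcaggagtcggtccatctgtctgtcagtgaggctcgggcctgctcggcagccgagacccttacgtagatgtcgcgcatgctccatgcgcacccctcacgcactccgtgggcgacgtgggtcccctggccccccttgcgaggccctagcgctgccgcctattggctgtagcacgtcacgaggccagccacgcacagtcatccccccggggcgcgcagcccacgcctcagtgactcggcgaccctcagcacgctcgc

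The 10 windows held between 15 CpG dinucleotides (Sycp3) and 38 (Ddx4), with a median of 21.5, against a median of 7 over all 32851 windows of the table. At least 15 CpGs were found in 34.6% of all windows. The observed over expected CpG ratio was 0.67 to 1.03 in the germline genes and 0.38 in the median window. An E-box was present in 7 of the 10 windows (Ddx4, Mael, Sycp1, Sycp3, Hormad1, Slc25a31 and Taf7l), against 7.15% of all windows and 11.3% of those with at least 15 CpGs. The E2F6-type hexamer was present in 6 of the 10, against 20.0% of all windows and 45.4% of those with at least 15 CpGs. Both stood in the same 6 windows (Ddx4, Mael, Sycp1, Sycp3, Hormad1 and Slc25a31), against 1.99% of all windows and 5.04% of the CpG-rich ones. Asz1, Dazl and Tex101 had neither. Letters in a window describe its sequence and are not measured binding sites.

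**Figure D1:**
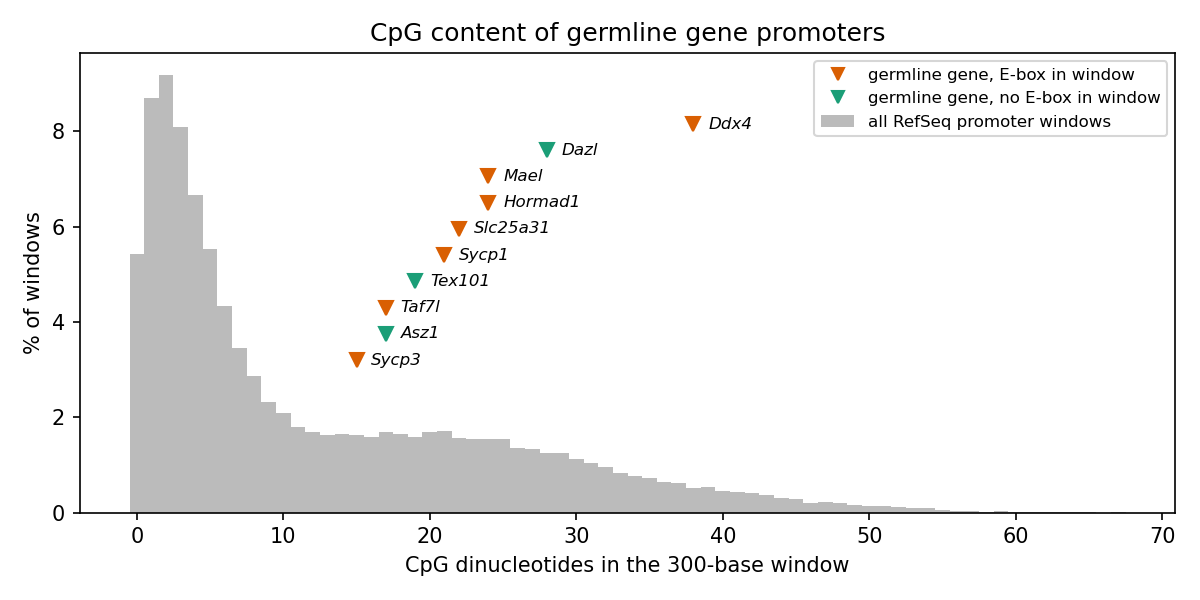
Number of CpG dinucleotides in the 300-base promoter window of the 10 germline genes (triangles, coloured by whether the window holds an E-box, height without meaning) over the distribution of all 32851 RefSeq windows (grey bars, % of windows). The germline windows hold 15 to 38 CpGs and lie right of the median window, which holds 7.

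Values are log2 RMA signals as deposited, and differences are in log2 units with the standard error of the fit (n = 3 arrays per group). The level of a row depends on its probes as well as on RNA, so rows are placed within a background distribution and are not ordered by amount. As background, 1400 rows of olfactory and vomeronasal receptor genes were used, genes known for use in sensory neurons. Their median was 3.16 to 3.27 on the 12 arrays and their 95th percentile 5.41 to 5.64. A value over the 95th percentile on its array is called above background below. In bulk samples fewer cells of a type and less RNA per cell cannot be told apart.

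None of the 9 germline genes with a row of their own was above background on any of the 12 arrays. Their means over the arrays ran from 2.42 (Hormad1) to 4.99 (Tex101), with an SD over the 12 arrays of 0.114 (Taf7l) to 0.233 (Dazl). Among the means of receptor rows they stood from the 23.8th percentile (Hormad1) to the 89.8th (Tex101). Receptor rows had a median SD of 0.207, and 90% of them had one between 0.116 and 0.362, so the germline rows varied about as much as rows of the background. Of all genes tested, 51.9% were above background on all 12 arrays, and 43 of the 1400 receptor rows were. The shared row of Sycp3 and Chpt1 was the exception, at 6.18 to 6.82 and above background on all 12 arrays. That row was over the 99th percentile of receptor rows on 1 of the 12. It differed by -0.08 ± 0.17 between Tet2-/- and Tet2fl/fl cells at passage 2 and by 0.07 ± 0.17 at passage 10 (limma over all rows, adjusted p = 0.940 and 0.977).

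**Figure D2:**
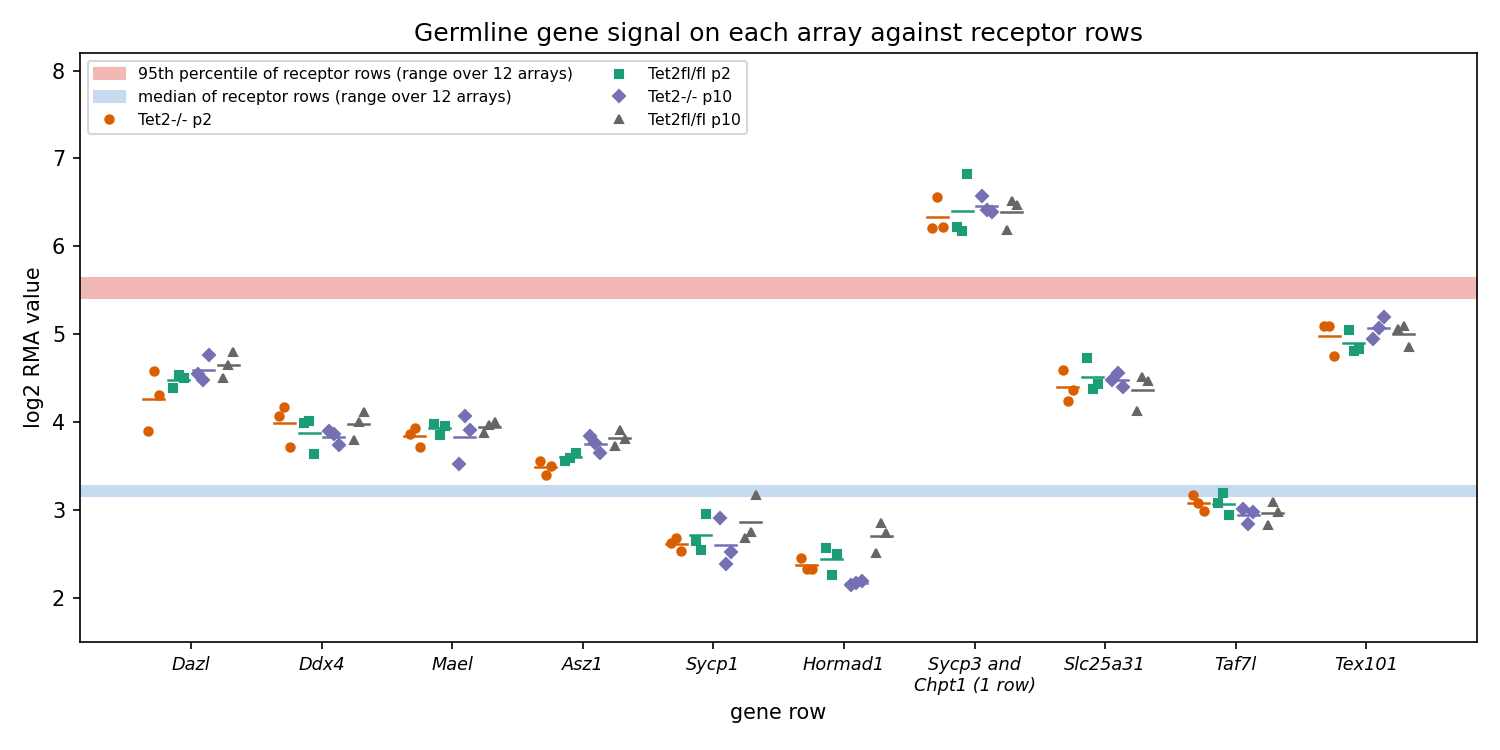
Log2 RMA value of each germline gene row on each of 12 arrays, by group, with the group mean as a short line. The pale red band is the range over arrays of the 95th percentile of receptor rows and the pale blue band that of their median. Every point of the 9 rows with a single gene lies under the red band, and the row shared by Sycp3 and Chpt1 lies above it.

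Dazl, Ddx4, Mael and Asz1 serve the handling of germ cell RNA. Dazl encodes an RNA-binding protein that regulates translation. Its row read 3.90, 4.58 and 4.31 in Tet2-/- and 4.39, 4.54 and 4.50 in Tet2fl/fl cells at passage 2, then 4.54, 4.48 and 4.76 in Tet2-/- and 4.50, 4.65 and 4.80 in Tet2fl/fl cells at passage 10. One Tet2-/- p2 array was lower than the rest, and the genotypes overlapped at both passages. Its differences were -0.21 ± 0.15 (adjusted p = 0.742) at the early and -0.06 ± 0.15 (adjusted p = 0.962) at the late passage. Without that low array, Tet2-/- p2 replicate 1, the early difference was -0.03, and it ran from -0.37 to -0.03 with each array left out in turn.

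Ddx4 encodes the RNA helicase Vasa of germ granules. It read 4.07, 4.18 and 3.72 in Tet2-/- and 3.99, 4.01 and 3.63 in Tet2fl/fl cells at passage 2, then 3.90, 3.87 and 3.74 in Tet2-/- and 3.79, 4.00 and 4.12 in Tet2fl/fl cells at passage 10. The genotypes overlapped at both passages. Mael, which acts in transposon silencing by piRNAs, lay between 3.52 and 4.07 over the 12 arrays, both on Tet2-/- p10 arrays. Its differences were -0.09 ± 0.13 at passage 2 and -0.11 ± 0.13 at passage 10.

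Asz1 encodes a scaffold protein of the piRNA machinery on mitochondria. It read 3.55, 3.39 and 3.50 in Tet2-/- cells, against 3.56, 3.59 and 3.64 in Tet2fl/fl cells at passage 2. The groups touched without overlap, by 3.554 against 3.561, and the difference was -0.12 ± 0.085 (adjusted p = 0.746). At passage 10 it read 3.84, 3.77 and 3.65 in Tet2-/- and 3.73, 3.91 and 3.81 in Tet2fl/fl cells, which overlapped.

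Sycp1 and Hormad1 belong to the meiotic chromosome axis and the synaptonemal complex that joins paired chromosomes. Sycp1 encodes the transverse filament of that complex. It read 2.63, 2.68 and 2.53 in Tet2-/- and 2.64, 2.55 and 2.95 in Tet2fl/fl cells at passage 2, then 2.91, 2.38 and 2.52 in Tet2-/- and 2.67, 2.74 and 3.17 in Tet2fl/fl cells at passage 10. The groups overlapped at both passages. The difference of -0.26 ± 0.16 at passage 10 had an adjusted p of 0.722. Leaving out replicate 1 of the Tet2-/- p10 arrays gave -0.42, and leaving out their replicate 2 gave -0.15. With replicate 3 of the Tet2fl/fl p10 arrays left out it was -0.11.

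Hormad1, a HORMA domain protein that marks unsynapsed chromosome axes, gave the largest genotype difference among the 9 genes. At passage 2 it read 2.45, 2.33 and 2.33 in Tet2-/- and 2.57, 2.26 and 2.49 in Tet2fl/fl cells. At passage 10 it read 2.14, 2.16 and 2.19 in Tet2-/- and 2.51, 2.85 and 2.74 in Tet2fl/fl cells. The passage 10 groups did not overlap, while those of passage 2 did. Its highest position among the receptor rows of an array was the 37.7th percentile. The passage 10 difference was -0.53 ± 0.11, a signal 1.45-fold lower in Tet2-/- cells (95% confidence interval 1.23 to 1.70), with an unadjusted p of 0.000338 and an adjusted p of 0.0900 in limma's test. It did not pass the threshold of 0.05, nor did it with the replicate number as a block (adjusted p = 0.0746). Over both passages together the difference was -0.30 ± 0.08 (adjusted p = 0.0888). The interaction, the passage 10 difference minus the passage 2 difference, was -0.46 ± 0.15 (unadjusted p = 0.0102, adjusted p = 0.999). Leaving out Tet2fl/fl p10 replicate 1 brought the adjusted p for both passages together to 0.0383, and no other array left out brought it under 0.05.

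Some markers of blood cell types differed between the same arrays. The mean of 8 mast cell and basophil markers was 11.1 to 11.3 in Tet2-/- and 11.6 on each array of Tet2fl/fl cells at passage 2. It was 10.9 to 11.3 in Tet2-/- and 11.5 to 11.8 in Tet2fl/fl cells at passage 10, where 7 of the 8 had a negative difference, 0 of 8 passed without the replicate block and 2 of 8 with it (Fcer1a and Tpsab1, both lower), against 0.144% and 0.523% of all genes. Over both passages 1 of 8 passed without the block (Tpsab1, with a difference of -1.43, adjusted p = 0.0150) and 2 of 8 with it (Fcer1a as well), against 0.983% and 2.90% of all genes. The part of this in the Hormad1 values was not tested. The 10 markers of immature myeloid cells, among them Mpo, Elane and Cebpa, were above background on all 12 arrays. So were 7 of the 8 mast cell and basophil markers, where 51.9% of all genes were. Of the 10 immature myeloid markers 1 passed over both passages (Kit, lower in Tet2-/- cells). It did so without and with the block, against 0.983% and 2.90% of all genes. At passage 10 Kit passed with the block only, against 0.523% of all genes. At passage 2 none of the 10 passed, against 0.00451% of all genes without and 0.0676% with the block. Of 8 mature neutrophil, 6 lymphoid, 2 erythroid and 4 megakaryocyte markers none passed for genotype, with or without the block. This held at passage 2, at passage 10 and over both, where 0.00451%, 0.144% and 0.983% of all genes passed without the block. Between passages in Tet2-/- cells, 1 of 10 immature myeloid and 1 of 8 neutrophil markers passed, both lower at passage 10. In the same comparison 1 of 4 megakaryocyte markers passed, higher at passage 10. All of these passed with the block only, against 4.35% of all genes. Of 8 germ cell and gonad markers, Pou5f1, Dppa3 and Zp3 were above background on no array. Kit (mean 10.3), which progenitors also use, Sall4 (5.88), Sox9 (5.81), Amh (5.90) and Gdf9 (5.77) were on all 12. This is 5 of 8, against 51.9% of all genes. Sall4, Sox9, Amh and Gdf9 lay close to the line. Their highest value was 6.14, under the 99th percentile of receptor rows, which was 6.43 to 6.84 on the 12 arrays. Kit was the 1 of the 8 to pass over both passages, lower in Tet2-/- cells with a difference of -0.82 (adjusted p = 0.0270), against 0.983% of all genes. At passage 10, 6 of the 8 differences were positive. None of the 8 passed without the block, and 1 passed with it (Kit, with a difference of -0.82). Of all genes 0.144% and 0.523% did. The highest difference of the 8 was that of Dppa3, a gene of early germ cells singled out after its values were seen. It read 4.38, 4.62 and 4.21 in Tet2-/- and 3.71, 3.64 and 3.92 in Tet2fl/fl cells at passage 10. These groups did not overlap, where those of 14.6% of all genes did not. The difference of 0.64 ± 0.15 had an adjusted p of 0.132.

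Slc25a31, Taf7l and Tex101 serve later male germ cells. Slc25a31 encodes the ADP/ATP carrier of germ cell mitochondria. It read 4.59, 4.24 and 4.36 in Tet2-/- and 4.73, 4.37 and 4.43 in Tet2fl/fl cells at passage 2, then 4.48, 4.55 and 4.40 in Tet2-/- and 4.13, 4.51 and 4.46 in Tet2fl/fl cells at passage 10. The groups overlapped at both passages, with differences of -0.11 ± 0.13 and 0.11 ± 0.13. Taf7l, an X-linked paralog of a subunit of the general transcription factor TFIID, lay between 2.83 and 3.19 over the 12 arrays. Its differences were 0.00 ± 0.10 at passage 2 and -0.02 ± 0.10 at passage 10. Tex101, a surface glycoprotein of male germ cells needed for male fertility in mice, lay between 4.75 and 5.20, and its differences were 0.08 ± 0.12 and 0.07 ± 0.12. The genotypes overlapped at both passages for both genes.

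Tex101 had the highest mean of the 9 rows. The named genes whose values ran most like it over the 12 arrays, out of 17904 searched, were Gpr17 (Pearson r = 0.898), Alyref2 (0.894) and Htr5b (0.892). The 12 arrays share 4 groups and 3 replicate numbers, and the differences between arrays were small (SD 0.142 for Tex101), so these values describe likeness only.

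Relatives of these genes that somatic cells use gave signal above background on every array. Slc25a4 and Slc25a5, the ADP/ATP carriers of somatic cells, averaged 8.93 and 12.4, Taf7 averaged 7.12, and Ddx3x, a DEAD-box helicase like Ddx4, averaged 10.3. This held for 4 of 4 such genes, against 51.9% of all genes. None passed for genotype, the nearest being Ddx3x at -0.14 ± 0.05 over both passages (adjusted p = 0.256).

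Early after deletion of Tet2 none of these germline rows differed past the threshold. At passage 2, 0 of the 9 genes passed in limma's test, where 0.00451% of the 22180 genes tested did, and 0 of 9 had an unadjusted p under 0.05, where 8.72% of all genes did. With the replicate block it was again 0 of 9, where 0.0676% of all genes passed. The groups did not overlap for 1 of 9 (Asz1), against 13.9% of all genes. The median difference was -0.09, beside -0.005 over all genes and -0.03 over receptor genes, and 6 of the 9 were negative. The 95% confidence intervals of the 9 differences reached from -0.55 to 0.42, which is a signal 1.46-fold lower to 1.34-fold higher in Tet2-/- cells. Such a bound holds for array signal. For rows at background it does not give a bound on RNA.

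At passage 10, after longer culture, 0 of 9 passed, where 0.144% of all genes did, and 0 of 9 with the replicate block, where 0.523% did. One of 9 (Hormad1) had an unadjusted p under 0.05, against 9.0% of all genes, and the groups of 1 of 9 (the same gene) did not overlap, against 14.6%. Without Hormad1 the other 8 differences lay between -0.26 and 0.11, with adjusted p-values of 0.722 or more. The median of the 9 was -0.07, beside -0.006 over all genes and 0.007 over receptor genes. Over both passages together 0 of 9 passed, where 0.983% of all genes did (2.90% with the replicate block, and again 0 of 9), and 1 of 9 had an unadjusted p under 0.05, against 13.3%. Here 8 of 9 differences were negative, with a median of -0.09, where 11385 of all 22180 genes and 740 of 1390 receptor genes were negative. The interaction gave 0 of 9 passing, where 0% of all genes did, and 1 of 9 with an unadjusted p under 0.05, against 3.47%.

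**Figure D3:**
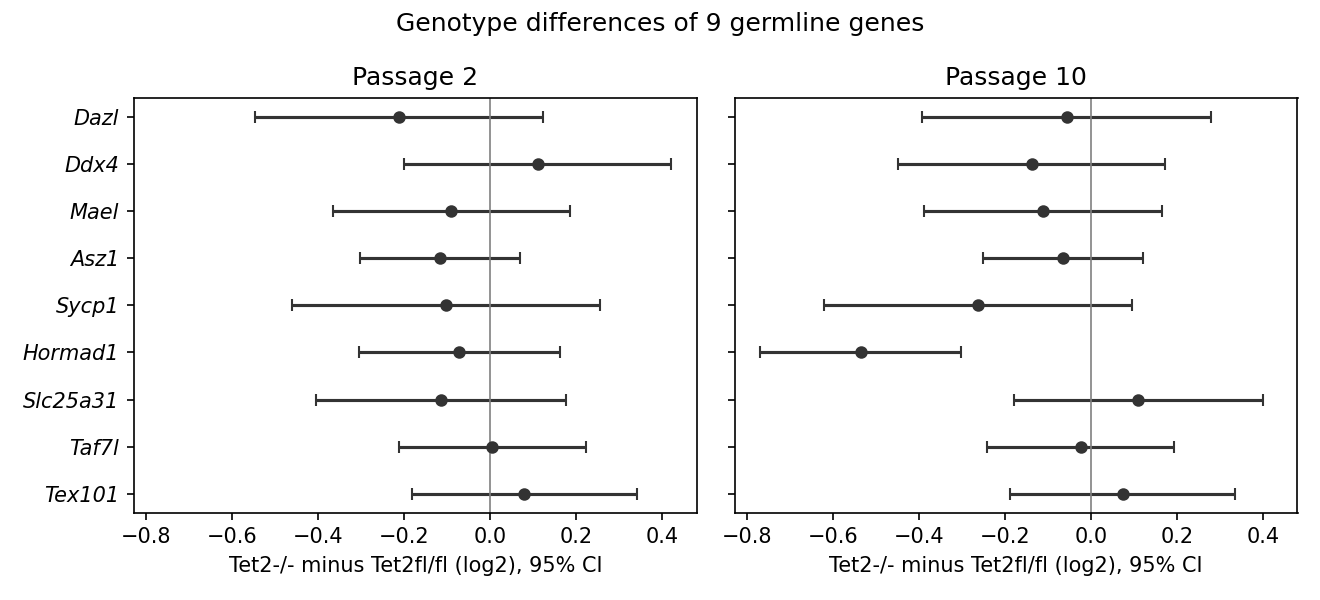
Difference in log2 RMA value, Tet2-/- minus Tet2fl/fl, for each of the 9 germline genes at passage 2 (left) and passage 10 (right), with 95% confidence intervals from the fit to 12 arrays. Every interval holds 0 apart from that of Hormad1 at passage 10, which runs from -0.77 to -0.30 before adjustment for the number of genes.

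The last comparison set passage 10 against passage 2 within a genotype. None of the 9 rows passed. This was 0 of 9 in Tet2-/- cells, where 0.983% of all genes did (4.35% with the replicate block, and again 0 of 9), and 0 of 9 in Tet2fl/fl cells, where 0% did. At an unadjusted p under 0.05 there were 1 of 9 in Tet2-/- cells, against 18.0% of all genes, and 2 of 9 in Tet2fl/fl cells, against 9.25%. Asz1 was higher at passage 10 than at passage 2 in both genotypes without overlap, by 0.27 ± 0.085 in Tet2-/- cells (unadjusted p = 0.0085, adjusted p = 0.134) and by 0.22 ± 0.085 in Tet2fl/fl cells (unadjusted p = 0.0252, adjusted p = 0.489). Hormad1 differed by -0.20 ± 0.11 in Tet2-/- cells, also without overlap, and by 0.26 ± 0.11 in Tet2fl/fl cells (adjusted p = 0.350 and 0.500). Dazl differed by 0.33 ± 0.15 in Tet2-/- cells (adjusted p = 0.286), by 0.15 without Tet2-/- p2 replicate 1 and by 0.49 without Tet2-/- p2 replicate 2. Groups without overlap were found for 2 of 9 genes in Tet2-/- cells, against 24.9% of all genes, and for 1 of 9 in Tet2fl/fl cells, against 13.7%.

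Other germline genes were taken from 6 lists, of which 109 of 116 genes had a row of their own. None passed for genotype at passage 2, at passage 10 or over both together without the replicate block, where 0.00451%, 0.144% and 0.983% of all genes did. An unadjusted p under 0.05 was found for 6, 5 and 4 of the 109, against 8.72%, 9.0% and 13.3% of all genes. The medians of their differences were 0.004, 0.02 and 0.02. Of the 109, 20 were above background on all 12 arrays (18.3%, against 51.9% of all genes), and 70 on none.

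Among piRNA and germ granule genes, 3 of 19 were above background on all arrays: Tdrd7 (7.65), Henmt1 (6.91), which methylates piRNAs, and Pld6 (6.15), a mitochondrial nuclease. The gene nearest to passing was Tex19.1, which guards against transposons, with 5.92, 5.76 and 5.74 in Tet2-/- and 5.57, 5.42 and 5.56 in Tet2fl/fl cells at passage 2. The passage 2 groups did not overlap, where those of 13.9% of all genes did not. The difference over both passages was 0.20 ± 0.07 (adjusted p = 0.227).

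Of 27 meiotic chromosome genes 5 were above background on all arrays. Syce2, which encodes a central element protein of the synaptonemal complex, was one of them. It read 10.6, 10.5 and 10.7 in Tet2-/- and 10.3, 9.95 and 10.3 in Tet2fl/fl cells at passage 2, then 10.3, 10.1 and 10.2 in Tet2-/- and 9.97, 9.92 and 9.52 in Tet2fl/fl cells at passage 10. Tet2-/- values were higher in 3 of 3 arrays at each passage without overlap. The groups of 13.9% (passage 2) and 14.6% (passage 10) of all genes did not overlap. The Syce2 difference over both passages was 0.42 ± 0.09, with an adjusted p of 0.0547 without the replicate block and 0.0366 with it. It was the 1 of the 109 genes to pass with the block, where 2.90% of all genes passed.

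The other 4 lists held no gene that passed for genotype. Of 10 testis paralogs of metabolic enzymes and the like none was above background on all arrays, and Ldhc, the testis lactate dehydrogenase, came nearest to passing (-0.19 ± 0.08, adjusted p = 0.304). Of 20 X-linked cancer-testis genes 4 were above background on all arrays, and Magea1 came nearest (-0.20 ± 0.10, adjusted p = 0.399). Of 18 late spermatid genes 5 were, with Izumo1, the sperm protein that binds the egg, nearest (0.13 ± 0.07, adjusted p = 0.485). Of 15 germline transcription factor genes 3 were, with Sohlh1 nearest (0.12 ± 0.07, adjusted p = 0.468). These p-values are limma's for both passages together, adjusted over all genes.

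All measured genes of 2 further lists were above background on all 12 arrays, where 51.9% of all genes were. This held for 16 of 16 genes of PRC1.6 and its partners on all 12 arrays, among them E2f6 (mean 7.72), Mga (9.95), Max (10.1), Pcgf6 (8.64) and L3mbtl2 (8.51). It held as well for 18 of 18 measured genes that add, read or remove DNA and H3K9 methylation, the Tet genes included, among them the maintenance methyltransferase gene Dnmt1 (10.6), its partner Uhrf1 (9.0) and the de novo methyltransferase genes Dnmt3a (7.86) and Dnmt3b (6.56). None of the 34 passed for genotype at either passage or over both, with or without the block. Between passages in Tet2-/- cells, 1 of the 18 passed without the block and 2 with it, both lower at passage 10, against 0.983% and 4.35% of all genes. These were Hells, a chromatin remodeller needed for DNA methylation, with a difference of -0.92 ± 0.16 (adjusted p = 0.0374), and Uhrf1 at -0.60 ± 0.14 (adjusted p = 0.0588, with the block 0.0447), both singled out after their values were seen. Of the 16 PRC1.6 genes none passed there, 8 had an unadjusted p under 0.05, against 18.0% of all genes, and the median was -0.19, beside 0.04 over all genes. Of their differences 11 were negative and 5 positive. The groups did not overlap for 3 genes that were higher and 6 that were lower at passage 10, against 24.9% of all genes. In Tet2fl/fl cells none of the 34 passed between passages, where 0% of all genes did, and 0 of 16 and 3 of 18 had an unadjusted p under 0.05, against 9.25%. Hells and Uhrf1 were lower at passage 10 in these cells too, without overlap, where the groups of 13.7% of all genes did not overlap. Hells read 8.05, 8.24 and 8.37 at passage 2 and 7.86, 7.75 and 7.28 at passage 10. Uhrf1 read 9.23, 9.40 and 9.40 at passage 2 and 8.90, 8.91 and 8.60 at passage 10. For genotype, the nearest were Rnf2, the ubiquitin ligase of Polycomb complexes (0.13 ± 0.05, adjusted p = 0.303), and Tet3, a paralog of Tet2 (-0.24 ± 0.06, adjusted p = 0.0878, with the block 0.0536). Tet3 read 9.55, 9.57 and 9.70 in Tet2-/- and 9.88, 9.82 and 9.84 in Tet2fl/fl cells at passage 2, then 9.53, 9.42 and 9.50 in Tet2-/- and 9.78, 9.59 and 9.78 in Tet2fl/fl cells at passage 10. The Tet3 groups did not overlap at either passage, where those of 13.9% (passage 2) and 14.6% (passage 10) of all genes did not. Tet2 gave 9.64 to 10.1 over all arrays with a difference of -0.04 ± 0.07, but its row gives 1 value for the whole gene and does not check the deletion.

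**Figure D4:**
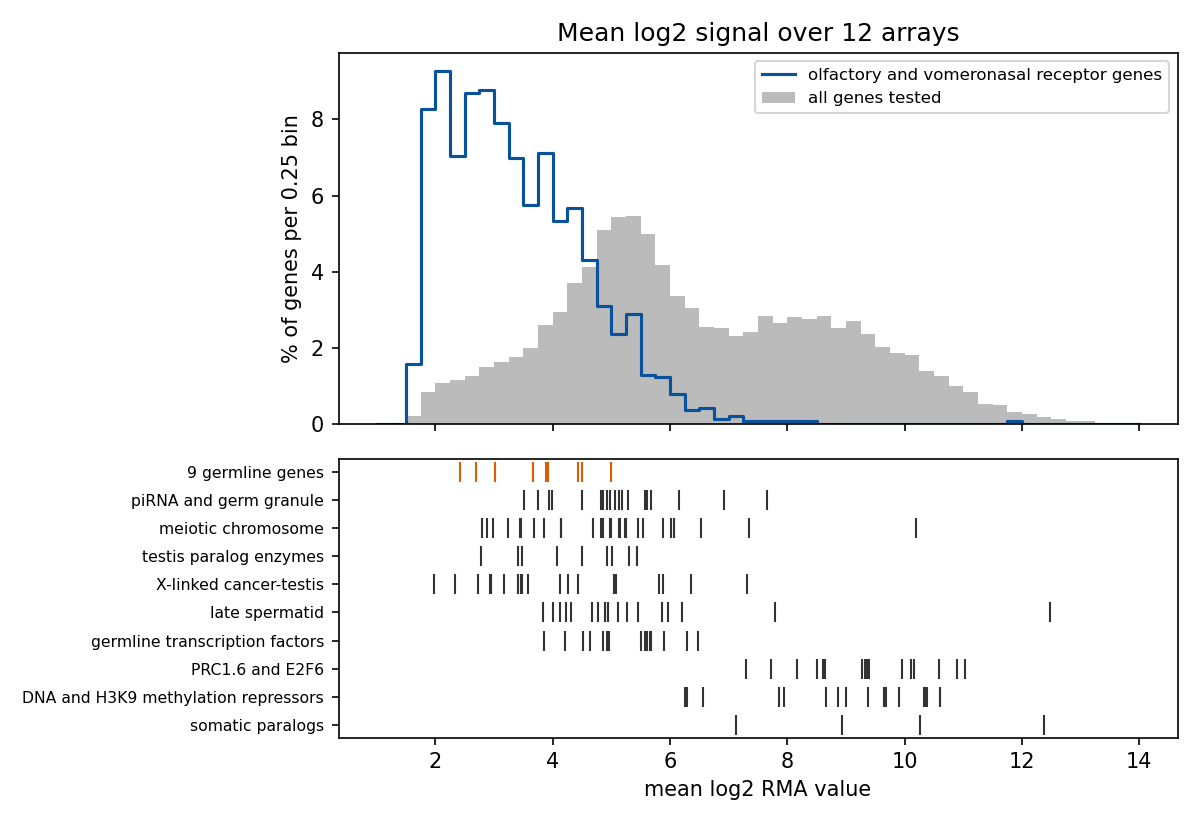
Upper panel, share of genes per bin of 0.25 of the mean log2 RMA value over 12 arrays, for all 22180 genes tested (grey bars) and for receptor genes (blue line). Lower panel, the mean of each measured gene (1 tick each) by list, with the 9 germline genes in orange. The orange ticks run from 2.42 to 4.99 within the receptor distribution, and those of the PRC1.6 and methylation lists all lie at 6.26 or higher.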

How the data were processed

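For each of the 12 samples, 100 ng of RNA from sorted cells went onto its own Mouse Gene ST 2.0 array. The deposited values are log2 signals that the authors made with RMA in Affymetrix Power Tools, per the submitters' processing notes. Its version is not stated there. The table holds 41345 rows: 23521 with 1 symbol, 1814 with several and 16010 with none. Current symbols came by gene ID from a RefSeq table of GRCm38.p6 (23328 matched, 193 kept). Of several rows of a gene the one with the highest mean was used, and no filter on low values was set, so that every germline gene with its own row was tested. A filter at the 30th percentile of all rows (4.70) would keep 1 of the 9, Tex101.

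With limma 3.58.1 in R 4.3.3, the 4 group means were fitted to all 12 arrays for 22180 genes (8 residual and 3.67 prior degrees of freedom), with two-sided moderated tests and Benjamini-Hochberg adjustment over all genes within a contrast at 0.05. The number of arrays limits the precision. The steps were tested on simulated data. Same-numbered arrays of different groups deviated together (correlation 0.148 to 0.430 for 18 of 18 pairs, -0.302 to 0.0518 for 36 pairs with different numbers), so the replicate number was used as a block beside the results. The genes, lists and tests, including the contrast over both passages, were chosen with earlier results of these data known. Named were the 9 genes and, from other lists, those that passed for genotype or else the 1 with the smallest p over both passages. No gene was named from the mature neutrophil, lymphoid, erythroid and megakaryocyte markers, which departs from this rule. Tet2 and the 3 genes most like Tex101 over the arrays were named by the same rule, and most other list genes are given for their level only. The passage values of Asz1, Dazl and Hormad1 and the arrays of Syce2, Tex19.1, Tet3, Hells and Uhrf1 were singled out after their values were seen. The same holds for the tests of Dppa3, Hells, Uhrf1, Fcer1a and Odf1. Alternatives were 2 filters, equal array medians, quantile normalization, the trend option of limma alone and with its robust option, weights per array, fixed and random blocks, row means, all rows, a fit to the compared groups alone and leaving out each array.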

Additional observations from a re-analysis of the deposited data

How the results depend on the processing

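In none of the 6 contrasts did 1 of the 9 genes pass under the alternatives that kept all 12 arrays. A fit to the compared groups alone was made for 4 contrasts, not for the interaction or both passages together, and gave 0 as well. With a filter at the 30th percentile 1 gene could be tested, and with one at the 50th none, so that the 50th gave no value. The count of genes called over both passages was 0 to 1 when arrays were left out in turn: without Tet2fl/fl p10 replicate 1 it was 1 (Hormad1, -0.35, adjusted p = 0.0383). The Hormad1 difference at passage 10 ran from -0.63 to -0.46 with an array left out, with adjusted p-values of 0.0516 to 0.275, and its adjusted p under the other alternatives was 0.0629 to 0.307. The replicate block changed no call among the 9 genes (Hormad1 at passage 10, adjusted p = 0.0746), but over all genes it moved the calls to 15 at passage 2, against 1 without it, 116 at passage 10, against 32, 643 over both passages, against 218, and 964 between passages in Tet2-/- cells, against 218. No gene of the 9 was above background on all arrays with the 99th percentile of receptor rows, with olfactory rows only, with the median of all rows as the line, or with any array left out.

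Signs of small differences turned. The Taf7l difference at passage 2 was -0.040 with equal array medians, -0.016 with quantile normalization and -0.0040 with array weights, and that of Hormad1 at passage 2 was 0.0023 with array weights. With arrays left out in turn, differences at passage 2 ran from -0.059 to 0.064 for Taf7l, -0.013 to 0.25 for Ddx4 and -0.19 to 0.017 for Sycp1. At passage 10 they ran from -0.14 to 0.0175 for Dazl, -0.23 to 0.046 for Mael, -0.0087 to 0.18 for Slc25a31 and -0.093 to 0.040 for Taf7l. Other differences kept their sign with wide ranges. At passage 2 they ran from -0.14 to -0.030 for Mael, -0.21 to -0.0056 for Slc25a31, -0.16 to -0.0075 for Hormad1 and 0.023 to 0.19 for Tex101. At passage 10 they ran from -0.23 to -0.064 for Ddx4, -0.11 to -0.015 for Asz1 and 0.0003 to 0.14 for Tex101. The cause was not tested. Signal at background limits what these rows can show.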

Other observations

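Odf1, named for the outer dense fibres of the sperm tail and singled out after its value was seen, read 12.3 to 12.7 on the 12 arrays and was above background on all of them. Its level depends on its probes as well as on RNA and is not set against other rows. It differed by -0.08 ± 0.06 between Tet2-/- and Tet2fl/fl cells over both passages (adjusted p = 0.592 in limma's test). Of its list of 18 measured late spermatid genes, Odf2 (mean 7.79), Acr (6.20), Zpbp (5.96) and Tssk6 (5.86) were also above background on all 12 arrays. With Odf1 this is 5 of 18, against 51.9% of all genes. Acr, Zpbp and Tssk6 lay under the 99th percentile of receptor rows on every array. In the meiotic chromosome list, Mei4 (7.35), Zcwpw1 (6.53), Prdm9 (6.06) and Msh5 (6.01) were above background on all 12 arrays, beside Syce2.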
